A study of Mus musculus with 12 samples.

Results

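Cadherins are calcium-dependent cell adhesion proteins, and the 32 genes described here are the classical and related cadherins with the nonclustered protocadherins. They were taken as the genes whose probe sets carry exactly 1 symbol in the platform annotation, that of a member, which gave 35 probe sets of 21780 and 32 genes of 19934 so annotated. Each of 3 genes (Cdh18, Pcdh9 and Pcdh15) had 2 probe sets. The extracellular domains of classical cadherins bind the same or a related cadherin on the next cell, and their tails hold catenins that link to actin. A switch from one cadherin to another, such as E-cadherin to N-cadherin, is a known step when epithelia become motile, whereas neural progenitors already use N-cadherin. Protocadherins adhere more weakly and are known for roles in neuronal wiring and cell movement.

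The study measured 9 mouse glioblastoma cultures and 3 neural stem cell (NSC) cultures, each on 1 whole-transcript array. All 12 came from mice lacking Arf, a tumour suppressor, that carry tv-a, the receptor through which an avian retrovirus (RCAS) enters mouse cells. The tumours were induced with RCAS encoding PDGFB, delivered by injecting virus-producing chicken DF-1 cells into adult brain. The mGC1_GFAP cultures came from G/tv-a;Arf-/- mice (tv-a under the Gfap promoter, n = 3), mGC2_NES from N/tv-a;Arf-/- mice (Nes promoter, n = 3) and mGC3_CNP from C/tv-a;Arf-/- mice (Cnp promoter, n = 3). The NSC cultures came from the subventricular zone of adult mice, 1 from each of these lines, and carry no replicate number, so they are named here by line. All cells grew adherently in stem cell medium with no treatment. Each tumour group is 1 mouse line, so origin and line cannot be told apart. The labels do not say whether the tumour cultures of a group came from different animals, so each p-value is about variation among these cultures, which may not be variation among animals.

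The deposited values are log2 levels made with RMA, which gives all arrays a common distribution, so a shift shared by most genes cannot be seen. Array medians were 7.6 to 7.66. Spermatid genes (Prm2, Tnp1, Tnp2, Odf1), taken as silent in brain cells, read up to 7.42. A called difference whose lower mean is at or below 7.42 is therefore given as a lower bound, and no probe set's level is set against another's. Differences are in log2 units ± standard error from limma, with p adjusted by Benjamini-Hochberg over all 21780 probe sets, and differences with an adjusted p under 0.05 are named as called. Marker genes of oligodendrocyte precursors (mean log2 level of 6 genes) read 12.28 to 12.52 in the tumour cultures, against 10.19 to 10.31 in the NSC cultures. Marker genes of astrocytes and neural stem cells (8 genes) read 7.37 to 8.07 in the tumour cultures, against 10.31 to 10.61 in the NSC cultures. Their part in the member differences below was not tested. In cultures, fewer cells of a type and less RNA per cell cannot be told apart.

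Tumour cultures differed from NSC cultures in 11 of the 35 member probe sets (31.4%), each from another gene, against 36.7% of all probe sets tested. The share is near that of the whole array, so the number of changed cadherins is not itself a result about them. Of the 11, 7 were higher in tumour cultures (17.6% of all probe sets were called higher) and 4 were lower (19.2% of all). Pcdh15, Pcdh17, Cdh10, Pcdh8, Cdh11, Cdh6 and Pcdh1 rose, and Pcdh18, Cdh22, Cdh13 and Cdh2 fell. The difference reached 2-fold or more in 6 of them. The median difference of the 35 member probe sets was 0.13, against 0.007 over all probe sets. In 13 member probe sets the tumour and NSC arrays did not overlap (27.3% of all probe sets did so), and 10 of these 13 were called. Each of the 7 that rose was higher in 9 of 9 tumour cultures than in the NSC culture of its own mouse line, and each of the 4 that fell was higher in 0 of 9. For the 10 called without overlap this follows from the lack of overlap, so it adds no support.

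**Figure D1:**
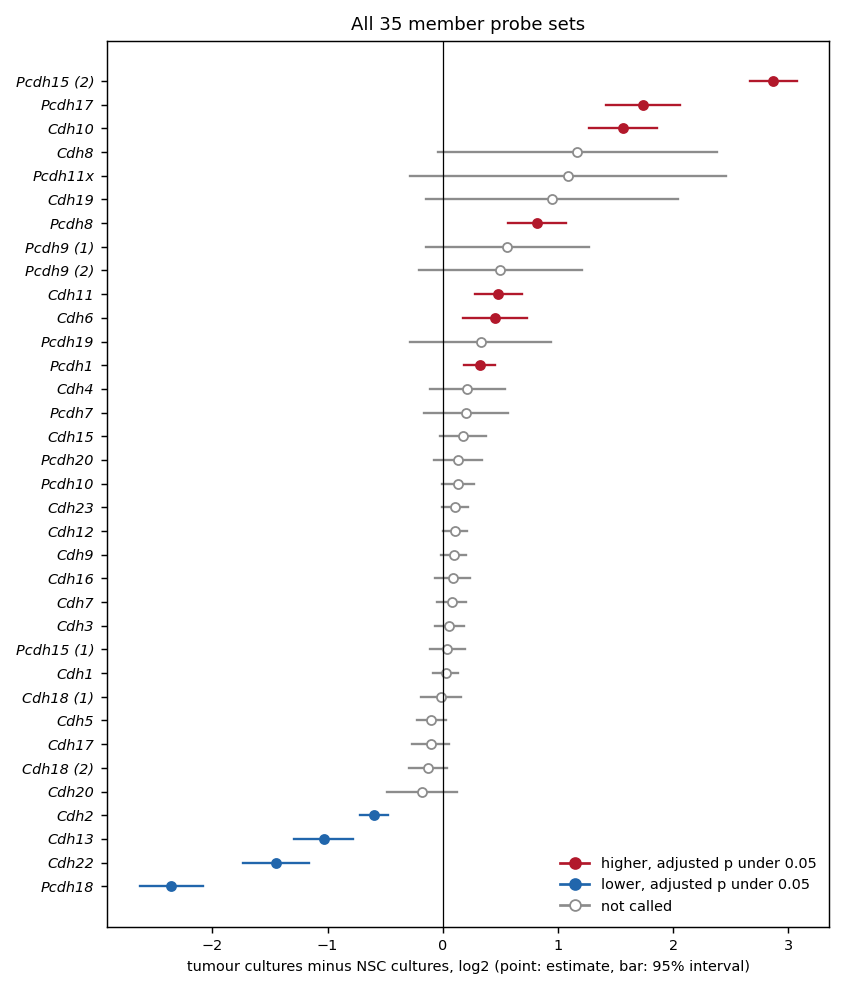
Difference between tumour and NSC cultures for all 35 member probe sets, in log2 units, with points for the estimate and bars for the 95% interval. Filled points mark the 11 called probe sets, 7 higher and 4 lower in tumour cultures, and the wide open bars belong to Cdh8, Pcdh11x and Cdh19, which varied between cultures of 1 group.

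Among the type I cadherins, which include the E-cadherin and N-cadherin of the classical switch, 0 of 5 genes rose and 1 fell. Cdh2 encodes N-cadherin, the main classical cadherin of neural progenitors. Its log2 level was 11.74, 11.63 and 11.78 in mGC1_GFAP, 11.65, 11.63 and 11.64 in mGC2_NES and 11.75, 11.73 and 11.86 in mGC3_CNP, against 12.23, 12.38 and 12.32 in the G/tv-a, N/tv-a and C/tv-a NSC cultures. Every tumour culture lay below every NSC culture. The fall was -0.59 ± 0.06 (adjusted p = 5.91e-06), or 1.51-fold, and the lowest tumour culture still read 11.63, far above the range of silent genes. Cdh1 encodes E-cadherin, the epithelial counterpart. It read 6.28, 6.32 and 6.39 in mGC1_GFAP, 6.19, 6.30 and 6.31 in mGC2_NES and 6.19, 6.29 and 6.23 in mGC3_CNP, against 6.24, 6.25 and 6.27 in the G/tv-a, N/tv-a and C/tv-a NSC cultures. All 12 values lay below 7.42, and the groups overlapped. The difference of 0.02 ± 0.05 was not called (adjusted p = 0.758), with a 95% interval of -0.08 to 0.13. None of 6 epithelial markers (Epcam, Krt8, Krt18, Cldn7, Esrp1, Krt19) was called, and their mean was 6.51 to 6.62 in tumour cultures, against 6.51 to 6.57 in NSC cultures.

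The other type I genes were not called in tumour against NSC cultures. Cdh4, the retinal cadherin of many brain cells, averaged 11.37 ± 0.21 in tumour cultures (SD, n = 9) and 11.15 ± 0.34 in NSC cultures (SD, n = 3), with overlap. Without the G/tv-a NSC culture its difference was called (0.41, adjusted p = 0.046). Cdh3, the placental cadherin of epithelia, read 6.37 to 6.65 in tumour cultures. Cdh15, the muscle cadherin, was called in mGC2_NES against NSC alone among the 3 groups (0.31 ± 0.11, a lower bound at readings within the range of silent genes, adjusted p = 0.0478). That call was lost in 9 of the 12 fits that left out 1 culture. Muscle markers averaged 6.64 to 6.84 in tumour cultures, against 6.70 to 6.73 in NSC cultures.

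Type II cadherins, which sort brain regions and neuron classes by differential adhesion, held 3 genes that rose and 1 that fell among 12. Cdh10 is one of the type II cadherins of brain. It read 11.22, 11.39 and 11.04 in mGC1_GFAP, 10.78, 10.93 and 10.79 in mGC2_NES and 10.76, 11.21 and 11.24 in mGC3_CNP, against 9.85, 9.31 and 9.28 in the G/tv-a, N/tv-a and C/tv-a NSC cultures. Tumour and NSC cultures stood clear of each other, with a rise of 1.56 ± 0.14 (2.95-fold, adjusted p = 3.43e-06). Cdh11, a cadherin of mesenchyme also made in brain, averaged 11.53 ± 0.13 in tumour cultures (SD, n = 9) and 11.05 ± 0.27 in NSC cultures (SD, n = 3), a rise of 0.48 ± 0.09 with no overlap (adjusted p = 0.00157). Cdh6, first known from kidney, read 10.93 to 11.40 in tumour cultures and 10.25 to 11.00 in NSC cultures. It was the one called member whose groups overlapped, and its rise of 0.45 ± 0.13 (adjusted p = 0.0143) became 0.22 without the N/tv-a NSC culture, where it read 10.25, and stayed called.

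Cdh22 was the type II gene that fell. It encodes a cadherin first found in rat pituitary and brain. Its level was 8.41, 8.13 and 8.31 in mGC1_GFAP, 7.99, 8.06 and 7.90 in mGC2_NES and 8.28, 8.45 and 8.74 in mGC3_CNP, against 9.60, 9.43 and 10.07 in the G/tv-a, N/tv-a and C/tv-a NSC cultures. The highest tumour culture lay below the lowest NSC culture. The fall was -1.45 ± 0.13 (2.73-fold, adjusted p = 4.46e-06). Cdh20, a further type II gene, averaged 10.76 ± 0.21 in tumour cultures (SD, n = 9) and 10.94 ± 0.24 in NSC cultures (SD, n = 3) and was not called (-0.18 ± 0.14, adjusted p = 0.37).

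Cdh6, Cdh9, Cdh10, Cdh12 and Cdh18 lie on chromosome 15, where 37.2% of 831 probe sets were called higher in tumour cultures and 9.27% lower, against 16.8% and 19.7% of 20035 probe sets on the other autosomes. The median difference there was 0.11, against 0.005 on the other autosomes. The rises of Cdh10 (1.56) and Cdh6 (0.45) stand beside this shift, whose part in them was not tested. Cdh9, Cdh12 and Cdh18 on the same chromosome read at or below 7.42 in all cultures and were not called.

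Of 3 GPI-anchored and kidney or gut cadherins, 0 rose and 1 fell. Cdh13 encodes T-cadherin, which has no cytoplasmic tail, is held by a lipid anchor and binds adiponectin. It read 10.48, 10.46 and 10.19 in mGC1_GFAP, 10.10, 10.51 and 10.20 in mGC2_NES and 10.52, 10.56 and 10.73 in mGC3_CNP, against 11.22, 11.74 and 11.39 in the G/tv-a, N/tv-a and C/tv-a NSC cultures. The groups did not overlap, and the fall was -1.04 ± 0.12 (2.05-fold, adjusted p = 3.10e-05). Cdh16 and Cdh17, cadherins of kidney and of gut, stayed at or below 7.42.

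Pcdh15, a tip-link cadherin of the inner ear that is also known as a gene of oligodendrocyte precursors, had the largest estimated difference of the 35 member probe sets, though the second in size, that of Pcdh18, is a lower bound. The probe set tied to RefSeq transcripts read 11.49, 11.65 and 11.52 in mGC1_GFAP, 11.34, 11.15 and 11.41 in mGC2_NES and 11.28, 11.41 and 11.46 in mGC3_CNP, against 8.53, 8.78 and 8.32 in the G/tv-a, N/tv-a and C/tv-a NSC cultures. The NSC cultures lay far below all tumour cultures. The rise was 2.87 ± 0.09, or 7.30-fold (adjusted p = 1.09e-09). The precursor genes Pdgfra, Cspg4, Sox10 and Nkx2-2 rose in the same comparison, by 3.80, 2.66, 4.51 and 2.33, while the list's other genes, Olig1 (-0.04) and Olig2 (-0.135), were not called. Their part in the rise of Pcdh15 was not tested. The second Pcdh15 probe set, listed only with cDNA clones, disagreed with the first. It read 7.06 to 7.37 in tumour cultures and was not called (0.04 ± 0.07, adjusted p = 0.73). Cdh23, the binding partner of Pcdh15 in the tip link, read 6.87 to 7.10 in tumour cultures and was not called.

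Among delta-2 protocadherins, whose tails bind regulators of actin, 2 of 5 genes rose and 1 fell. Pcdh17 is known from synapse formation and axon growth. It read 11.04, 11.14 and 11.07 in mGC1_GFAP, 10.47, 10.64 and 11.00 in mGC2_NES and 10.47, 11.09 and 11.06 in mGC3_CNP, against 9.40, 9.02 and 9.02 in the G/tv-a, N/tv-a and C/tv-a NSC cultures. All tumour cultures exceeded all NSC cultures, and the rise was 1.74 ± 0.15 (3.34-fold, adjusted p = 2.55e-06). Pcdh8, an activity-induced protocadherin that draws N-cadherin from the surface of rat neurons, read 7.32 to 8.12 in tumour cultures and 6.94 to 7.05 in NSC cultures. Its rise of 0.82 ± 0.11 (adjusted p = 0.000149) is a lower bound, because the NSC mean of 6.99 is within the range of silent genes.

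Pcdh18, which binds the adaptor Dab1 in mouse, went the other way. Its level was 6.82, 6.65 and 6.63 in mGC1_GFAP, 6.76, 6.42 and 7.03 in mGC2_NES and 6.54, 6.91 and 6.64 in mGC3_CNP, against 9.05, 8.89 and 9.26 in the G/tv-a, N/tv-a and C/tv-a NSC cultures. In tumour cultures it was no higher than silent genes can read, and in NSC cultures it was well above them. The fall of -2.36 ± 0.12 (adjusted p = 6.29e-08) makes it at least 5.12-fold lower in tumour cultures. Pcdh10, which recruits an actin-regulating complex at contacts, was high in both kinds of culture, at 11.30 ± 0.08 in tumour cultures (SD, n = 9) and 11.17 ± 0.08 in NSC cultures (SD, n = 3), and was not called (adjusted p = 0.144).

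Delta-1 protocadherins held 1 gene that rose among 4. Pcdh1, known from human airway epithelium, read 7.70 to 8.01 in tumour cultures and 7.39 to 7.59 in NSC cultures, a rise of 0.32 ± 0.06 with no overlap (adjusted p = 0.00136). Its NSC mean of 7.49 is only just above 7.42, and the G/tv-a NSC culture read below 7.42. Pcdh7, Pcdh9 and Pcdh11x, the other 3, were not called. The single further protocadherin, Pcdh20, stayed at or below 7.42.

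**Figure D2:**
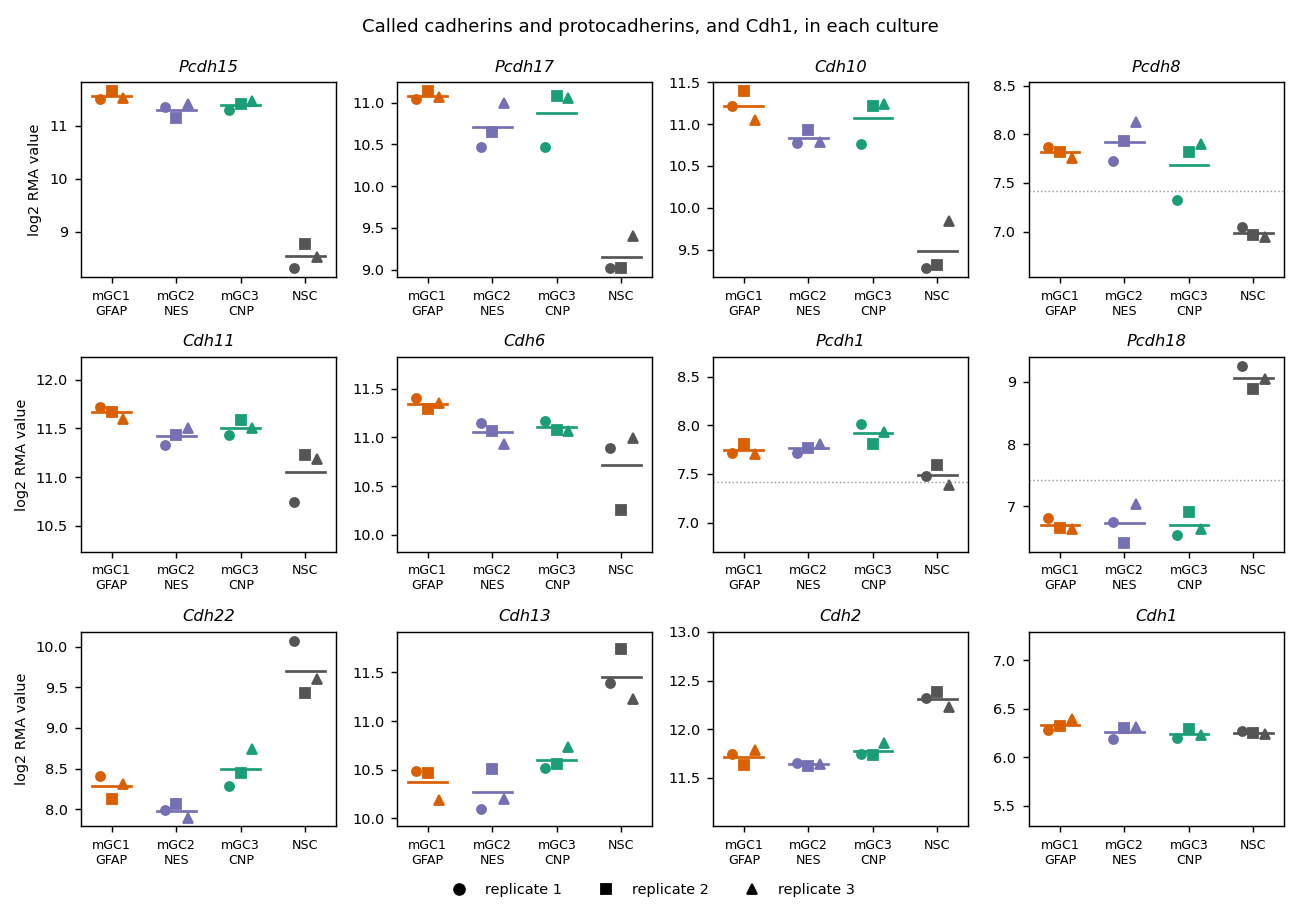
Log2 RMA value of the 11 called members and of Cdh1 in each culture, with points for cultures, shapes for replicates and bars for group means. The NSC shapes stand for C/tv-a (circle), N/tv-a (square) and G/tv-a (triangle), and the dotted line marks 7.42. Tumour cultures lie above NSC for Pcdh15, Pcdh17 and Cdh10 and below NSC for Pcdh18, Cdh22, Cdh13 and Cdh2, while Cdh6 overlaps.

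In all, 14 member probe sets of 13 genes read at or below 7.42 in all 12 cultures. In tumour against NSC cultures 0 of these 14 were called, against 11 of the other 21. The 14 were picked by low readings in these same arrays, so this contrast is not a result about the members. The share of calls among all probe sets with such readings was not counted. One of the 13 genes was the endothelial cadherin Cdh5, which read 6.40 to 6.62 in tumour cultures and 6.56 to 6.73 in NSC cultures. The 6 endothelial markers averaged 6.36 to 6.58 in tumour cultures and 6.36 to 6.46 in NSC cultures.

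The promoters of the members called at 2-fold or more are shown for the 5 with an entry in the RefSeq promoter table used here (GRCm38.p6, 250 bases before to 50 after the start of the gene), with CG dinucleotides in capitals, because the rises and falls can be set beside their CpG content. The first 3 lines are genes that rose and the last 2 genes that fell.
Pcdh15: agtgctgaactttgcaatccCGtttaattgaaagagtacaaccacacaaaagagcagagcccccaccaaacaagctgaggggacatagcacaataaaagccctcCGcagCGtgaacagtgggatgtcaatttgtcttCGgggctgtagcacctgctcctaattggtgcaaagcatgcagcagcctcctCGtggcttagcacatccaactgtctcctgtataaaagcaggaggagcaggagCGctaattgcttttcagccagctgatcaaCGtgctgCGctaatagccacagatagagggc
Pcdh17: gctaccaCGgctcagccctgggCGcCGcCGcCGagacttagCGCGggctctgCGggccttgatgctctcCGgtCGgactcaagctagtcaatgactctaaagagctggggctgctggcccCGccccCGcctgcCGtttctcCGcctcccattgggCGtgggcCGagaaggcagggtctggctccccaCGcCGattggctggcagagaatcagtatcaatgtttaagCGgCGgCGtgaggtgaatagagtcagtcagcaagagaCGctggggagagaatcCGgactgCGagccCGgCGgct
Cdh10: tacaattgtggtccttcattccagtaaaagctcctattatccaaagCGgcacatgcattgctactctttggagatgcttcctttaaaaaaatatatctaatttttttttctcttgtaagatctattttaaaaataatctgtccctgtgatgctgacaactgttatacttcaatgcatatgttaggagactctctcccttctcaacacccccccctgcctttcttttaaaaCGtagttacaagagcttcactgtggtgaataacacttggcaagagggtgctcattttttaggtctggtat
Pcdh18: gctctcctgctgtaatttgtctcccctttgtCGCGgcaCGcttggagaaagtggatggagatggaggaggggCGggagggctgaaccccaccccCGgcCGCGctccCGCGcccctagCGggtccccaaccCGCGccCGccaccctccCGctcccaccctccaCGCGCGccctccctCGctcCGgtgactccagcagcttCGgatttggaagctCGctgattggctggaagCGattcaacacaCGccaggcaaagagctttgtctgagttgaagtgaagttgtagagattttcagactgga
Cdh22: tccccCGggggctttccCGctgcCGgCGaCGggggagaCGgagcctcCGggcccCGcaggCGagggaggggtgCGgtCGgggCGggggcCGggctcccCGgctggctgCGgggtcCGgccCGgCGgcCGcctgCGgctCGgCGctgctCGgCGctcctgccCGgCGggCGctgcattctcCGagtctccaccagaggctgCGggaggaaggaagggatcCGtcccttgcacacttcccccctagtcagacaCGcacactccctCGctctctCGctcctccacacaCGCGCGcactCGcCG

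The Pcdh15 promoter (chr10:73821617-73821916, plus strand) holds 8 CpG and that of Cdh10 (chr15:18820079-18820378, plus strand) holds 2, against a median of 7 over 32851 promoters of that length. Pcdh17 (chr14:84443313-84443612, plus strand) holds 26, Pcdh18 (chr3:49757267-49757566, minus strand) holds 23 and Cdh22 (chr2:165234688-165234987, minus strand) holds 38, all above the upper quartile of 20. These CpG-rich promoters were those of 1 gene that rose and 2 that fell, and Cdh10, the promoter with the fewest CpG of the 5, rose. The 5 genes were chosen by their change, and a link between CpG content and direction was not tested. The E-box CAGGTG, a motif bound by Snai and Zeb repressors, was searched on both strands. It occurs in 20.2% of all promoters and once among these 5, in Pcdh15. The SOX motif ACAAAG, also searched on both strands, occurs in 18.7% of all promoters and among these 5 at 2 places of Pcdh18. Of the 32 genes, 20 had a promoter in the table, and Cdh1, Cdh2 and Cdh13 did not.

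The 3 tumour groups were then each set against the NSC cultures, which the 3 comparisons share. Of the 35 member probe sets, 12 were called in mGC1_GFAP (34.3%, against 29.3% of all probe sets). In mGC2_NES 11 were called (31.4%, against 34.9% of all) and in mGC3_CNP 10 (28.6%, against 30.3% of all). These shares are near those of the whole array, so the counts are not results about the members. Of the 11 members called above, all 11 were called in mGC1_GFAP and 10 each in mGC2_NES and mGC3_CNP. The 11 were picked by the mean of these same 3 differences, so this count adds no support. Some of these calls rested on single cultures. Pcdh1 lost its call in mGC1_GFAP without the C/tv-a or the G/tv-a NSC culture or mGC1_GFAP replicate 2, and in mGC2_NES without the G/tv-a NSC culture. Cdh11 lost its call in mGC2_NES without the C/tv-a NSC culture or mGC2_NES replicate 2 or 3. For Pcdh15 the rise was 3.01 ± 0.11 in mGC1_GFAP, 2.75 ± 0.11 in mGC2_NES and 2.84 ± 0.11 in mGC3_CNP. The fall of Pcdh18 was -2.37, -2.33 and -2.37 in the same order, each ± 0.15. Cdh6 was the one not called in every group, at 0.63 ± 0.15 in mGC1_GFAP (adjusted p = 0.0091), 0.34 ± 0.15 in mGC2_NES (adjusted p = 0.121) and 0.39 ± 0.15 in mGC3_CNP (adjusted p = 0.0811). Against the NSC culture of the same line alone, the order of the groups was another. The Cdh6 differences were then 0.35 in mGC1_GFAP, 0.80 in mGC2_NES and 0.21 in mGC3_CNP, which was not tested. Cdh8 was the other member called in mGC1_GFAP (2.19 ± 0.67, a lower bound, adjusted p = 0.0296), a call lost without any 1 of the NSC cultures or without mGC1_GFAP replicate 2 or 3.

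Between the tumour groups no member was called by limma. In mGC1_GFAP against mGC2_NES 6.13% of all probe sets were called and 0 of 35 member probe sets, with 7 at an unadjusted p under 0.05. In mGC1_GFAP against mGC3_CNP the figures were 0.487% of all, 0 members and 4 at an unadjusted p under 0.05. In mGC2_NES against mGC3_CNP they were 0.459%, 0 and 4, and in the moderated F test of any difference 4.05%, 0 and 5. A missed threshold does not show that the groups are alike. For Cdh2 the 95% interval was -0.07 to 0.23 for mGC1_GFAP minus mGC2_NES, -0.21 to 0.09 for mGC1_GFAP minus mGC3_CNP and -0.29 to 0.01 for mGC2_NES minus mGC3_CNP. For Pcdh15 the same intervals were 0.05 to 0.45, -0.03 to 0.36 and -0.29 to 0.11.

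Cdh6 came nearest to a call between origins. It read 11.40, 11.29 and 11.35 in mGC1_GFAP against 11.15, 11.07 and 10.93 in mGC2_NES, and 11.17, 11.08 and 11.07 in mGC3_CNP. The mGC1_GFAP cultures lay above the 6 others, but the difference from mGC2_NES, 0.295 ± 0.074, had an adjusted p of 0.0501. Over 6 other settings of the fit its adjusted p was 0.0414 to 0.324, and 4 of them made the call. Cdh22 was lowest in mGC2_NES and highest in mGC3_CNP, a difference of -0.51 ± 0.12 for mGC2_NES minus mGC3_CNP that missed the threshold (adjusted p = 0.119).

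Some members varied more between cultures of 1 group than between groups. In 6 of 35 member probe sets (17.1%) the range within a tumour group reached 1 log2 unit, against 3.81% of all probe sets. Pcdh11x, an X-linked delta-1 protocadherin, read 11.32, 11.72 and 11.19 in mGC1_GFAP and 11.02, 10.85 and 11.13 in mGC2_NES. In mGC3_CNP it read 7.69, 11.44 and 11.39, against 10.03, 10.03 and 9.25 in the G/tv-a, N/tv-a and C/tv-a NSC cultures. Without the lowest culture, mGC3_CNP replicate 1, the tumour cultures exceeded the NSC cultures. The difference over all cultures was 1.09 ± 0.62 (adjusted p = 0.211), and without that culture it was 1.503 (adjusted p = 5.12e-05). This fit is named because of the value left out, so its p-value shows dependence on 1 culture and is not a test. The same holds for such fits of Cdh4 above and of Cdh19, Pcdh9, Pcdh7, Cdh8 and Pcdh19 below.

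Cdh19, a type II cadherin of Schwann cell precursors, was lowest in that same culture. It read 8.96, 7.91 and 9.18 in mGC1_GFAP, 8.36, 8.40 and 7.99 in mGC2_NES and 6.23, 8.83 and 9.19 in mGC3_CNP, against 7.49, 7.33 and 7.37 in the G/tv-a, N/tv-a and C/tv-a NSC cultures. The other 8 tumour cultures lay above the NSC cultures. The difference was 0.94 ± 0.50 (adjusted p = 0.173) over all cultures and 1.25 (a lower bound, adjusted p = 0.00124) without mGC3_CNP replicate 1. The 4 Schwann and neural crest markers measured averaged 7.69 to 8.05 in tumour cultures, against 7.35 to 7.47 in NSC cultures. Egr2 rose by 1.83, Foxd3 (0.24) and Pmp2 (-0.32) were called at readings within the range of silent genes, and Ngfr was not called. Their part was not tested.

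Both Pcdh9 probe sets gave one pattern. The first read 9.76, 10.30 and 9.81 in mGC1_GFAP, 8.92, 9.84 and 10.23 in mGC2_NES and 8.71, 10.27 and 10.12 in mGC3_CNP, against 9.31, 9.22 and 9.12 in the G/tv-a, N/tv-a and C/tv-a NSC cultures. The lowest tumour culture was again mGC3_CNP replicate 1, without which the differences of 0.56 ± 0.32 and 0.50 ± 0.32 became 0.72 (adjusted p = 0.0288) and 0.66 (adjusted p = 0.0479). Pcdh7, a further delta-1 gene, read 9.28 in that culture and 9.83 to 10.25 in the other 8 tumour cultures, and was called without it (0.30, adjusted p = 0.0322). That culture was the lowest of 9 in 10 of 35 member probe sets. Over all probe sets its mean distance to the other 2 cultures of its group was 45.5, against 37.3 to 40.3 for the other tumour cultures. No label sets it apart.

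Cdh8, a type II cadherin of synapses, split the mGC1_GFAP cultures. It read 6.31, 9.51 and 9.23 in mGC1_GFAP, 6.39, 7.15 and 8.01 in mGC2_NES and 6.30, 6.48 and 6.57 in mGC3_CNP, against 6.17, 6.17 and 6.13 in the G/tv-a, N/tv-a and C/tv-a NSC cultures. Only mGC1_GFAP replicates 2 and 3 and mGC2_NES replicate 3 exceeded 7.42. The difference of 1.17 ± 0.55 was not called (adjusted p = 0.127), and without mGC1_GFAP replicate 1 it was 1.51 (a lower bound, adjusted p = 0.000883). Pcdh19, an X-linked delta-2 gene tied to epilepsy in humans, was lowest in mGC1_GFAP replicate 1, at 7.12, and read 8.02 to 9.31 in the other tumour cultures, against 7.88 to 8.42 in NSC cultures. Its difference was 0.33 ± 0.28 (adjusted p = 0.415) over all cultures and 0.50 (adjusted p = 0.0203) without that culture. The mGC2_NES cultures read 8.78, 9.31 and 8.99, above every other culture, though mGC1_GFAP replicate 3 also read 8.78. Against NSC the Pcdh19 difference was 0.89 ± 0.34 in mGC2_NES (adjusted p = 0.0667), -0.01 in mGC1_GFAP and 0.11 in mGC3_CNP, none called. With the mGC2_NES and NSC arrays alone, the mGC2_NES difference was called (adjusted p = 0.0065).

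**Figure D3:**
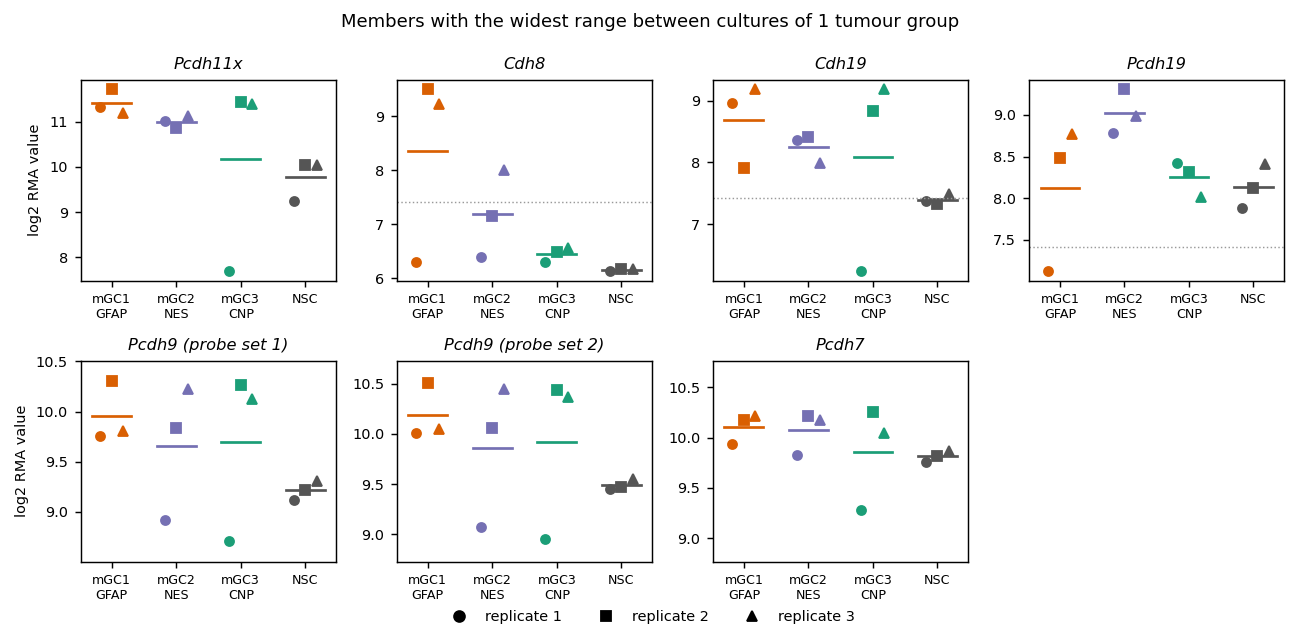
Log2 RMA value in each culture for the members whose range within a tumour group was 1 log2 unit or nearly so, with points for cultures, shapes for replicates and bars for group means. The NSC shapes stand for C/tv-a (circle), N/tv-a (square) and G/tv-a (triangle), and the dotted line marks 7.42. The circle of mGC3_CNP lies lowest for Pcdh11x, Cdh19, Pcdh9 and Pcdh7, and that of mGC1_GFAP lies lowest of its group for Cdh8 and Pcdh19.

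The partners of cadherins moved in both directions. Of 11 catenins and junction linkers, 3 rose and 4 fell. Over all probe sets, 17.6% were called higher and 19.2% lower. The counts of this list, of those that follow and of the member classes above stand beside these shares. Ctnna2, the neural alpha-catenin, rose by 0.95 ± 0.09 (adjusted p = 1.14e-05), whereas Ctnna1, the widely made alpha-catenin, fell by 0.42. Ctnnd2, the neural delta-catenin, rose by 0.67 ± 0.09 (adjusted p = 0.000151). Jup, or plakoglobin, fell by 0.84 ± 0.24 (adjusted p = 0.0158), and Vcl, the actin linker vinculin, by 0.65 ± 0.15 (adjusted p = 0.00456). Ctnnb1, beta-catenin, rose by 0.19 ± 0.05 (adjusted p = 0.0117).

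Of 10 transcription factors known to govern cadherin switches, 0 rose and 1 fell in tumour against NSC cultures. That 1 was Tcf4, an E-box factor, at -0.23 ± 0.08 (adjusted p = 0.0315). Snai1, Zeb1 and Twist1, repressors of E-cadherin in epithelia, differed by 0.00, -0.15 and 0.02 and were not called. Snai2 (0.77 ± 0.24, a lower bound, adjusted p = 0.0265) and Zeb2 (-0.50 ± 0.16, adjusted p = 0.0273) were called in mGC2_NES against NSC. Of 8 desmosomal genes measured of 10 listed, 0 rose and 2 fell. Pkp2, a desmosomal plaque protein, fell by 2.19 ± 0.31 (adjusted p = 0.000179), and Dsc2, a desmosomal cadherin, by 0.42 ± 0.06, both lower bounds, and Dsc2 read below 7.42 in both kinds of culture. Of 6 shedding proteases measured of 7 listed, which cut cadherins from the surface or within the membrane, 2 rose and 3 fell. Adam10, the main sheddase of N-cadherin, fell by 0.71 ± 0.06 (adjusted p = 2.34e-06), and Psen2, a presenilin, rose by 0.71 ± 0.14 (a lower bound, adjusted p = 0.00173).

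Of 11 Fat, Dachsous, Celsr and calsyntenin genes, the large relatives of the classical cadherins, 2 rose and 3 fell. Fat1, a giant cadherin that restrains growth, fell by 0.77 ± 0.14 (adjusted p = 0.00116), and Celsr1, a planar polarity cadherin, by 0.82 ± 0.16 (a lower bound, adjusted p = 0.00154). Fat3, a giant cadherin of neurons, was the gene of this list with a call between tumour groups. Of its 15 probe sets, 14 were called higher in tumour than in NSC cultures (0.36 to 0.94, lower bounds in 3 with an NSC mean at or below 7.42), but 4 without the N/tv-a NSC culture. In mGC1_GFAP against mGC2_NES 7 of the 15 were called (differences of 0.49 to 0.83, adjusted p 0.0141 to 0.105). In all 15 the mGC1_GFAP cultures lay above the mGC2_NES cultures. In mGC1_GFAP against mGC3_CNP the differences were 0.34 to 0.68 with 0 called (lowest adjusted p = 0.0595), and in mGC2_NES against mGC3_CNP they were -0.19 to 0.03 with 0 called. The probe sets of 1 gene share their RNA and are not independent.

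**Figure D4:**
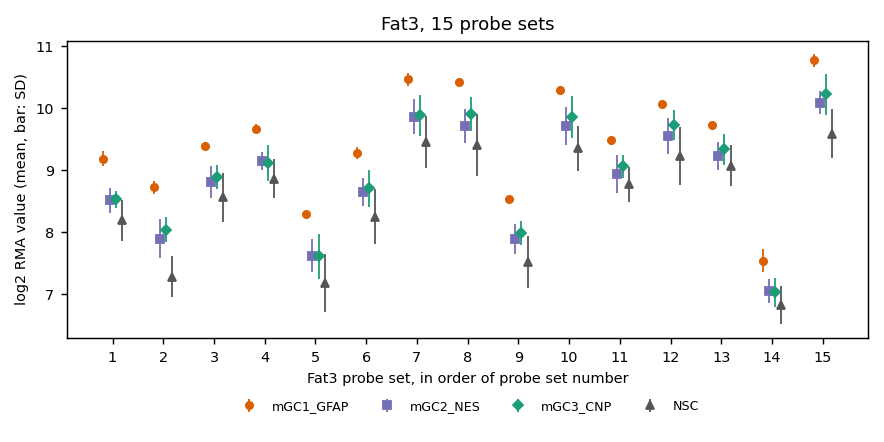
Mean log2 RMA value of each of 15 Fat3 probe sets in mGC1_GFAP, mGC2_NES, mGC3_CNP and NSC cultures, with bars for the SD of 3 cultures. The mGC1_GFAP mean is the highest at all 15 probe sets and the NSC mean the lowest.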

How the data were processed

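Expression was measured in 12 mouse cultures on Affymetrix whole-transcript arrays. Per the submitters' processing notes, the authors made the deposited log2 values with RMA in the Affymetrix Expression Console. Its version is not stated there. Nothing was rescaled or filtered before testing. Of 28270 probe sets, 21780 carried 1 symbol in the platform annotation and were tested, 1617 carried several and 4873 were not listed; 3 probe sets that share a member with other symbols were not used. Tests used limma 3.58.1 in R 4.3.3 (lmFit, eBayes, two-sided) and were tested on simulated data. Tumour groups were set against NSC on 12 arrays, and against each other on the 9 tumour arrays.

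The members and gene lists were chosen with earlier results of these data known. Values of every culture are given for Cdh1, Cdh2 and each member called at 2-fold or more or between tumour groups, by a set rule. Per-culture values of Cdh6, Cdh8, Cdh19, Pcdh7, Pcdh9, Pcdh11x and Pcdh19 were chosen after they were seen. From each list of other genes the called genes with the largest differences are named. Alternatives were another scaling, other variance priors, a filter on low values, blocks and leaving out each culture. Promoters came from RefSeq GRCm38.p6. Precision is limited by the number of arrays, which have no read depth.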

Additional observations from a re-analysis of the deposited data

Results flagged for a closer look

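Fat3, a relative outside the 32 genes, was called between tumour groups, where no member was called. In mGC1_GFAP against mGC2_NES 7 of its 15 probe sets were called by limma on the 9 tumour cultures. The probe set with the lowest adjusted p read 9.05, 9.28 and 9.23 in mGC1_GFAP, against 8.33, 8.49 and 8.73 in mGC2_NES, a difference of 0.67 ± 0.12 (adjusted p = 0.0141). The same probe set read 8.68, 8.52 and 8.41 in mGC3_CNP. The count of called probe sets was 0 to 13 with each tumour culture left out in turn, lowest without mGC2_NES replicate 2 and highest without mGC3_CNP replicate 1.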

How the results depend on the processing

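For the 11 members called between tumour and NSC cultures, all 187 recomputed values kept their direction and their call, and no result reversed. Of 400 values for the other 24 member probe sets, 391 kept their side of the threshold and 9 were newly called, all with a culture left out. With each culture left out in turn, 11 to 16 members were called for tumour against NSC. In single groups against NSC, calls of Cdh8, Cdh15, Pcdh1 and Cdh11 were lost in some fits, and Cdh11 in mGC2_NES and Cdh8 in mGC1_GFAP also with the arrays of those groups and NSC alone. Fits of 1 group and NSC alone also made new calls. These were Cdh19, both Pcdh9 probe sets and Pcdh11x in mGC1_GFAP (15 called in all). In mGC2_NES they were Cdh19, Pcdh11x and Pcdh19 (13 called in all). In mGC3_CNP it was Cdh8 (11 called in all), at readings within the range of silent genes. Between tumour groups, mGC1_GFAP against mGC2_NES gave 1 member (Cdh6) after subtraction of array medians, with an intensity trend in the variance prior, with the lowest 25% of probe sets left out, and with the replicate number as a block. The replicate block changed no other member's call. No label ties the numbers together, and same-numbered tumour cultures deviated from their group means with correlations of 0.002 to 0.254, 5 of 9 over 0.1, with 6 of 9 cultures closest to their own number, which hints at a link but falls short of the bar used for pairing. With each culture left out in turn this comparison called 0 to 2 members, mGC1_GFAP against mGC3_CNP 0 to 1 and the F test 0 to 1 (Cdh8 without mGC1_GFAP replicate 1, Cdh22 without mGC3_CNP replicate 1). Over all probe sets the leave-out counts were 534 to 1619 (1336 with all 9 cultures) for mGC1_GFAP against mGC2_NES, 24 to 106 (106) for mGC1_GFAP against mGC3_CNP, 42 to 133 (100) for mGC2_NES against mGC3_CNP and 222 to 945 (882) for the F test. With all 12 arrays in the fit, mGC1_GFAP against mGC3_CNP gave 65. The Fat3 count for mGC1_GFAP against mGC2_NES was 4 with the replicate block and 2 with all 12 arrays in the fit. The cause of these changes was not tested. Signal over background was not measured, so members at or below 7.42 have no reliable level.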
